A study of Homo sapiens with 6 samples.

Results

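The cytosolic ribosomal protein genes were examined in RNA-seq libraries of LNCaP, a widely used human prostate cancer line of luminal type. Members were the symbols that begin with RPL or RPS and a number, together with RPLP0, RPLP1, RPLP2 and RPSA. Of 128 symbols of that form in the table, 30 pseudogenes, 10 RPS6K kinases, 9 paralogs with the suffix L and RPS19BP1, which encodes no ribosomal protein, were left out. This gave 78 genes of 17297, 32 of the small (40S) subunit and 46 of the large (60S) subunit. All 78 had counts in every library and entered the fit, which had no filter on low counts.

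Both groups were LNCaP cells carrying a stably introduced pBabe retroviral vector with puromycin resistance, and transduced cells were kept in puromycin. pBabe-GNA13 cells (genotype given as GNA13 overexpression) carried wild-type GNA13 cDNA, which encodes the heterotrimeric G protein subunit Gα13, and pBabe-vector cells (genotype given as WT) carried the empty vector. Each condition was 1 stable line, grown on plates for 48 h and sequenced in 3 biological replicates, so an effect of GNA13 and another difference between the 2 lines cannot be told apart. GNA13 itself, on chromosome 17, lay between 747 and 886 CPM (library-scaled counts, normalised by TMM, which sets library sizes so that most genes have a log2 difference near 0) in pBabe-GNA13 and between 65.4 and 76.7 CPM in pBabe-vector. The counts do not separate the cDNA from the endogenous gene.

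Libraries held 33002160 to 40628970 counts. In each line 1 library carries the tag std in its heading, and these stood apart: genes of mitochondrial DNA took 2.09% and 2.54% of their counts, against 6.40% to 7.20% in the other 4 libraries. All 9 luminal markers, KLK3 among them, were present in every library, with a summed level of 6424 to 9175 CPM in pBabe-GNA13 and 5546 to 8228 CPM in pBabe-vector. The 3 basal markers summed to 4.49 to 8.26 CPM and 2.38 to 2.48 CPM, and the 3 fibroblast markers to 17.2 to 24.7 CPM and 11.6 to 23.2 CPM. Fits without the std pair, and the share of the members' counts without genes of mitochondrial DNA, are given below. Otherwise the part of these differences in the results was not tested.

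The cytosolic ribosome is built from rRNA and a set of proteins that are each present, with few exceptions, in a single copy per subunit, so their genes are expressed together and at high levels in growing cells. Their mRNAs typically start with a C followed by an unbroken stretch of pyrimidines, the 5' terminal oligopyrimidine (TOP) element, through which mTOR signaling and the binding protein LARP1 control their translation. Free ribosomal proteins are degraded or act outside the ribosome: RPL5 and RPL11, in a particle with 5S rRNA, bind the p53 ubiquitin ligase MDM2.

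Start sites from RefSeq (GRCh38.p14) were used for 63 of the 78 members. The 15 others include RPS20, RPL7, RPL30 and RPL8, all 4 members of a single chromosome. A member left out here may still have a start in RefSeq, and the member percentages below cover the 63 only. Of the 63, 47 (74.6%) had a C at an annotated start that opened a run of at least 5 C or T, against 5.14% of all 27305 symbols with an entry. A symbol with several annotated starts was counted if any of them met the rule. The motifs searched were CTTCC, the form with 1 more T, CTTTCC, and the form with 2 more, CTTTTCC, none of which contains another. At least 1 of these motifs occurred on the coding strand within 10 bases of an annotated start in 40 of 63 members (63.5%) and in 7.62% of all symbols. On the other strand only the shortest occurred, in 1 member (1.59%) and in 5.08% of all symbols. The windows below show 10 bases before and 20 bases from the annotated start, 5' to 3' on the gene's strand, for selected members, with the C-led run in capitals. Where a member has several annotated starts, the start with the longest run was taken, here and in the split by run below. The windows are given to show which of these members carry the element at this start and which do not. RPL11, RPLP0 and RPL41 are shown though they did not pass the blocked fit described below, and not every member with a large difference is shown.
RPS21 (chr20:62387093-62387122, plus strand): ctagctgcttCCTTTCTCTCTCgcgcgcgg
RPS12 (chr6:132814559-132814588, plus strand): cggatgaggcCTCTTTCCCTgccgccgccg
RPL28 (chr19:55385922-55385951, plus strand): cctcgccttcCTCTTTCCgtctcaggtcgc
RPL14 (chr3:40457329-40457358, plus strand): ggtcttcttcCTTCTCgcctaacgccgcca
RPS4Y1 (chrY:2841592-2841621, plus strand): agaacagattCTCTTCCgtcgcagagtttc
RPS4X (chrX:72277229-72277258, minus strand): ctccagccccaatttctacgcgcaccggaa
RPL11 (chr1:23691796-23691825, plus strand): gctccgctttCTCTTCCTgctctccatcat
RPLP0 (chr12:120201092-120201121, minus strand): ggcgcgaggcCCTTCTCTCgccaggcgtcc
RPL41 (chr12:56116623-56116652, plus strand): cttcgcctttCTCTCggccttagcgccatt
RPS26 (chr12:56041908-56041937, plus strand): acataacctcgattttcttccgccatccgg
RPL6 (chr12:112409266-112409295, minus strand): gacggcgcgtgcactgtgttcctggtcctg
RPS21, RPS12, RPL28 and RPL14 were lower in pBabe-GNA13 and have runs of 12, 10, 8 and 6 bases. RPS26 and RPL6 were higher and have no run at this start, nor has RPS4X. The 47 members with a run had a median log2 difference of −0.15 (−0.45 to 0.11), and the 16 without one of −0.16 (−0.24 to 0.34). In the blocked fit described below, 26 and 9 of them were lower, and 0 and 2 higher. A relation between the run and the difference was not tested. An annotated start is not a measured one, so an absent run says only that these letters are not in this window.

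Most ribosomal protein transcripts were slightly lower in pBabe-GNA13 than in pBabe-vector. The log2 difference (pBabe-GNA13 minus pBabe-vector) was negative in 67 of 78 members, 27 of 32 in the small subunit and 40 of 46 in the large. It was negative in 50.3% of all genes and in 62.3% of those with a mean over 100 CPM. Its median was −0.15 over the members, −0.18 for the small subunit and −0.15 for the large, while the median over all genes was −0.001 and that over the 2302 genes with a mean over 100 CPM was −0.04. Members lay between −0.45 (RPS21) and 0.34 (RPS26), with quartiles of −0.20 and −0.10. Without pBabe-vector replicate 2 the members' median was −0.068.

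Without pairing (quasi-likelihood test of edgeR, Benjamini-Hochberg adjusted over the whole table), 0 of the 78 members passed an adjusted p of 0.05, and the lowest adjusted p was 0.374 (RPL28). Only 0.139% of all genes passed this test. At an unadjusted p under 0.05 there were 6 members, 5 of the small and 1 of the large subunit, or 7.69% against 8.46% of all genes. DESeq2 and limma-trend also called 0 members.

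The libraries of the lines could, however, be paired from their headings, by replicate number or, for the std libraries, by the tag alone. The sample labels do not state this pairing, which was accepted from correlations in these same counts. The members moved together from pair to pair. Between replicate 3 and replicate 2 of the same line, the median member differed by −0.19 in pBabe-GNA13 and −0.25 in pBabe-vector, and between std and replicate 2 by −0.19 and −0.26. These differences within a line were as large as the difference between the lines, and in 67 of 78 members the range over the pBabe-vector libraries exceeded the difference. The same held for 13622 of all 17297 genes and for 1953 of the 2302 genes with a mean over 100 CPM. Within pairs, the median was −0.13 (std), −0.19 (replicate 2) and −0.12 (replicate 3). In 61 members pBabe-GNA13 was lower in all 3 pairs, and in 5 it was higher in all 3. Of all 17297 genes, 4382 were lower and 3914 higher in all 3 pairs. Among the 2302 genes with a mean over 100 CPM, 905 were lower and 490 higher in all 3.

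With the replicate pair as a block in the same edgeR fit, 45 members fell at an adjusted p under 0.05 and 2, RPS26 and RPL6, rose. Over all genes 19.7% were called in this fit, 10.4% lower and 9.32% higher. Members are strongly expressed and so tested with more counts than most genes, and among the 2302 genes over 100 CPM the shares were 19.5% lower and 10.2% higher. The 45 that fell, all over 100 CPM, were 57.7% of the members. They were 20 of 32 small-subunit genes and 25 of 46 large-subunit genes. Without the std pair, 44 members were lower and 2 higher, against 10.0% and 8.86% of all genes. With each pair left out in turn, 18 members (12 small, 6 large) were called lower every time and 1, RPS26, higher every time, against 4.32% and 4.92% of all genes. When GC content and length entered the blocked fit as an offset, 41 were lower (10.0% of all genes) and 3 higher (9.81%).

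**Figure D1:**
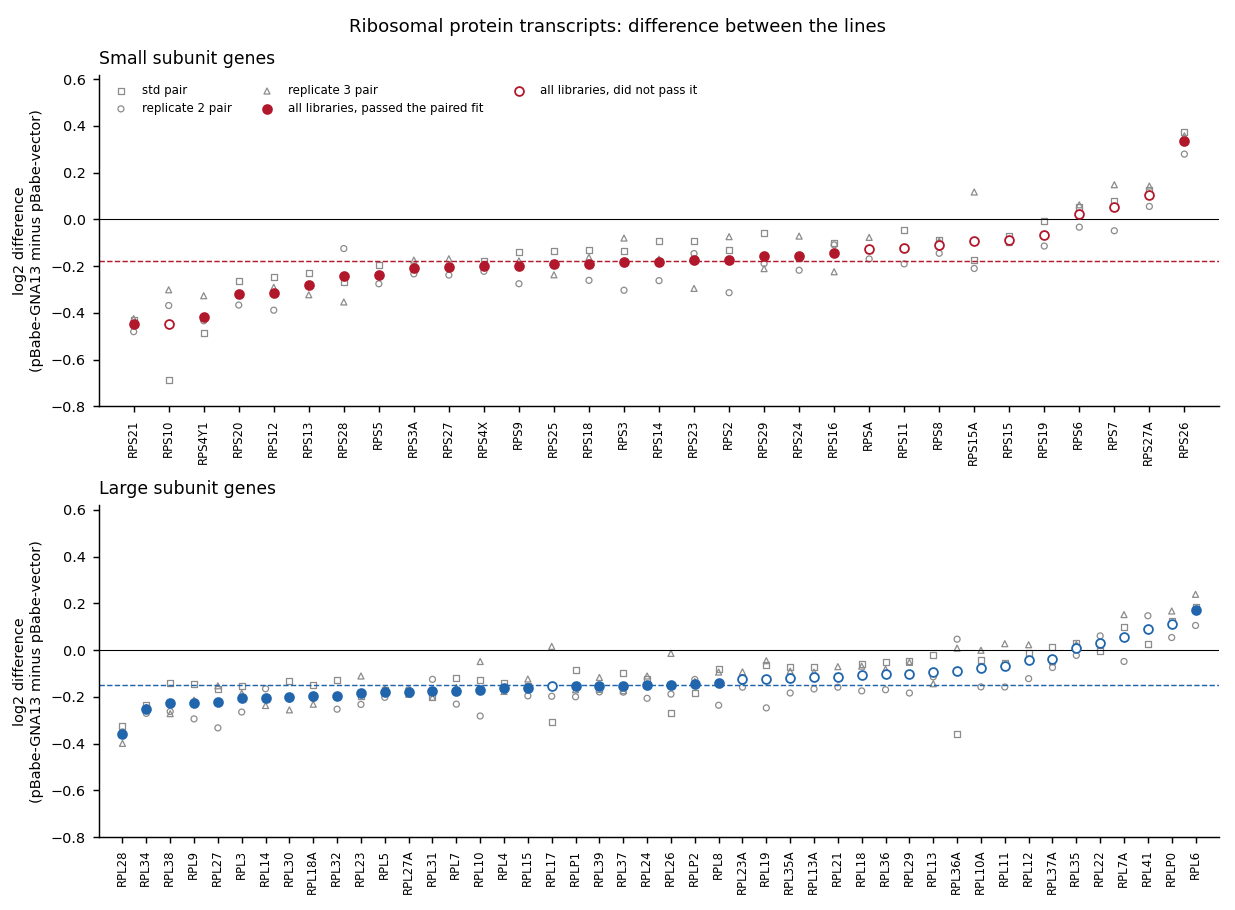
Log2 difference between pBabe-GNA13 and pBabe-vector (y axis) for the small-subunit and large-subunit genes reported by name (x axis, ordered by difference). Large circles are the value over all 6 libraries, filled where the blocked fit was passed at an adjusted p of 0.05; small grey symbols are the 3 pairs, and the dashed lines are the subunit medians (−0.18 and −0.15). Most genes lie between −0.45 and 0, and RPS26 stands at 0.34.

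Small-subunit proteins surround the mRNA channel and the decoding site. RPS21 had the largest fall of the members with ordinary counts. It lay at 373 (std), 466 (replicate 2) and 454 CPM (replicate 3) in pBabe-GNA13 and at 503, 650.4 and 609 CPM in pBabe-vector. Every pBabe-GNA13 library was below every pBabe-vector library, and the log2 difference was −0.45 ± 0.14 (SE; adjusted p = 0.401, and 1.45e-07 with the pair as a block, edgeR). Permuting the 3 and 3 libraries exactly gave a two-sided p of 0.1, the smallest this design allows.

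RPS12 was at 654, 749 and 656 CPM in pBabe-GNA13 and at 776, 979.9 and 802 CPM in pBabe-vector. RPS20 was at 505, 579 and 544 CPM against 605, 746 and 677 CPM. Neither gene's groups overlapped, and their log2 differences were −0.31 ± 0.13 and −0.32 ± 0.12 (SE), with edgeR adjusted p of 3.99e-05 and 2.86e-05 in the blocked fit. RPS13, with a log2 difference of −0.28, also fell in the blocked fit but its groups overlapped.

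RPS2, which lines the mRNA entry side, was at 3767, 3371 and 3673 CPM in pBabe-GNA13 and at 4123, 4188 and 3865 CPM in pBabe-vector, a log2 difference of −0.17 with no overlap of the groups. RPS3, its neighbour at the entry channel, which also acts in DNA repair, had the same direction in all 3 pairs (−0.14, −0.30 and −0.08), but the std and replicate 2 libraries of pBabe-GNA13 lay above replicate 3 of pBabe-vector. RPS2 and RPS3 passed the blocked fit, but neither passed it without the replicate 2 pair. RPS6, the substrate of the S6 kinases downstream of mTOR, was at 1600.4, 1886 and 1564 CPM against 1541, 1929.9 and 1498 CPM. Its log2 difference of 0.02 ± 0.15 (SE) was far smaller than the spread between replicates, and without single libraries it lay between −0.07 and 0.15.

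RPS4X and RPS4Y1 encode the X-linked and Y-linked forms of the same 40S protein. RPS4X was at 933, 1062 and 899 CPM in pBabe-GNA13 and 1057, 1238 and 1033 CPM in pBabe-vector, and RPS4Y1 at 229.9, 303 and 234 CPM and 322, 409 and 294 CPM. The log2 differences were −0.20 and −0.42, and both passed the blocked fit (edgeR adjusted p = 0.00316 and 9.35e-07). RPS4Y1 fell further than RPS4X in each of the 3 pairs. The difference between the paralogs was not tested. The annotation puts 19.7% of the RPS4Y1 exons under XGY2 on the same strand.

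RPS19 and RPS26 are both mutated in Diamond-Blackfan anaemia. RPS19 had a log2 difference of −0.07 ± 0.12 (SE). RPS26, which sits at the mRNA exit channel, was at 307, 312 and 346 CPM in pBabe-GNA13 and at 237, 257 and 270.1 CPM in pBabe-vector, the only member whose pBabe-GNA13 libraries all lay above the pBabe-vector libraries. Its log2 difference was 0.34 ± 0.10 (SE; edgeR adjusted p = 0.38, and 1.47e-05 with the block). RPS27A, made as a fusion with ubiquitin, was at 0.11 and higher in all 3 pairs, without passing either fit.

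Large-subunit proteins surround the peptidyl transferase centre and the exit tunnel. RPL28 had the smallest p of all members in the fit without pairing. It was at 733, 768 and 676 CPM in pBabe-GNA13 and at 917, 979 and 891 CPM in pBabe-vector. The groups did not overlap, and the log2 difference was −0.36 ± 0.11 (SE; edgeR adjusted p = 0.374, and 3.84e-06 with the block).

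RPL14 was at 1046, 1126 and 1033 CPM against 1209, 1263 and 1217 CPM, and RPL27A at 1179, 1303 and 1174 CPM against 1336, 1465 and 1338 CPM. The groups of both genes did not overlap, with log2 differences of −0.20 and −0.18. RPL34 (−0.25), RPL38 (−0.23), whose loss in mice alters translation of Hox mRNAs, and RPL30 (−0.20) fell in the blocked fit with overlapping groups. RPL14 and RPL27A passed the blocked fit too. Without the replicate 3 pair, RPL14, RPL27A, RPL38 and RPL30 did not pass it, while RPL34 did.

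In all, 9 members, 6 of the small and 3 of the large subunit, had pBabe-GNA13 libraries wholly below the pBabe-vector libraries, and 1 had them above. This is 11.5% and 1.28% of the members, against 6.79% and 7.30% of all genes. Besides those named they were RPS9 and RPS15, which were chosen after their values were seen. RPS9 was at 623, 647 and 587 CPM against 686, 782 and 664 CPM, and RPS15 at 863, 862 and 878 CPM against 906, 919.9 and 940.2 CPM. RPS15 did not pass the blocked fit.

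The partners of the 5S particle are given side by side, and the difference between them was not tested. RPL5 was at 666, 745 and 611 CPM in pBabe-GNA13 and at 749, 857 and 685 CPM in pBabe-vector, lower in each pair, with a log2 difference of −0.18 (edgeR adjusted p = 0.00867 with the block). Its groups overlapped, and it did not pass the blocked fit without the replicate 3 pair (edgeR adjusted p = 0.0679). RPL11 was at 607, 632 and 566 CPM against 629.6, 705 and 555 CPM, with a log2 difference of −0.07 ± 0.12 (SE), and its replicate 3 pair went the other way. RPL10, which joins the 60S subunit late in the cytoplasm, had a log2 difference of −0.17 ± 0.23 (SE), and its pBabe-vector libraries ran from 714 to 1257 CPM. It was lower in each pair and passed the blocked fit at −0.15 (edgeR adjusted p = 0.0352), but not without the replicate 2 pair (0.306), with chromosomes centred (0.188) or with DESeq2 and the block (0.0535). RPL22, an RNA-binding protein of the 60S surface, was at −0.004, 0.06 and 0.03 in the 3 pairs. RPL13A, which also silences inflammatory transcripts when released from the ribosome, was at 4120.3 ± 568 CPM and 4463 ± 752 CPM (SD, n = 3), within the spread.

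**Figure D2:**
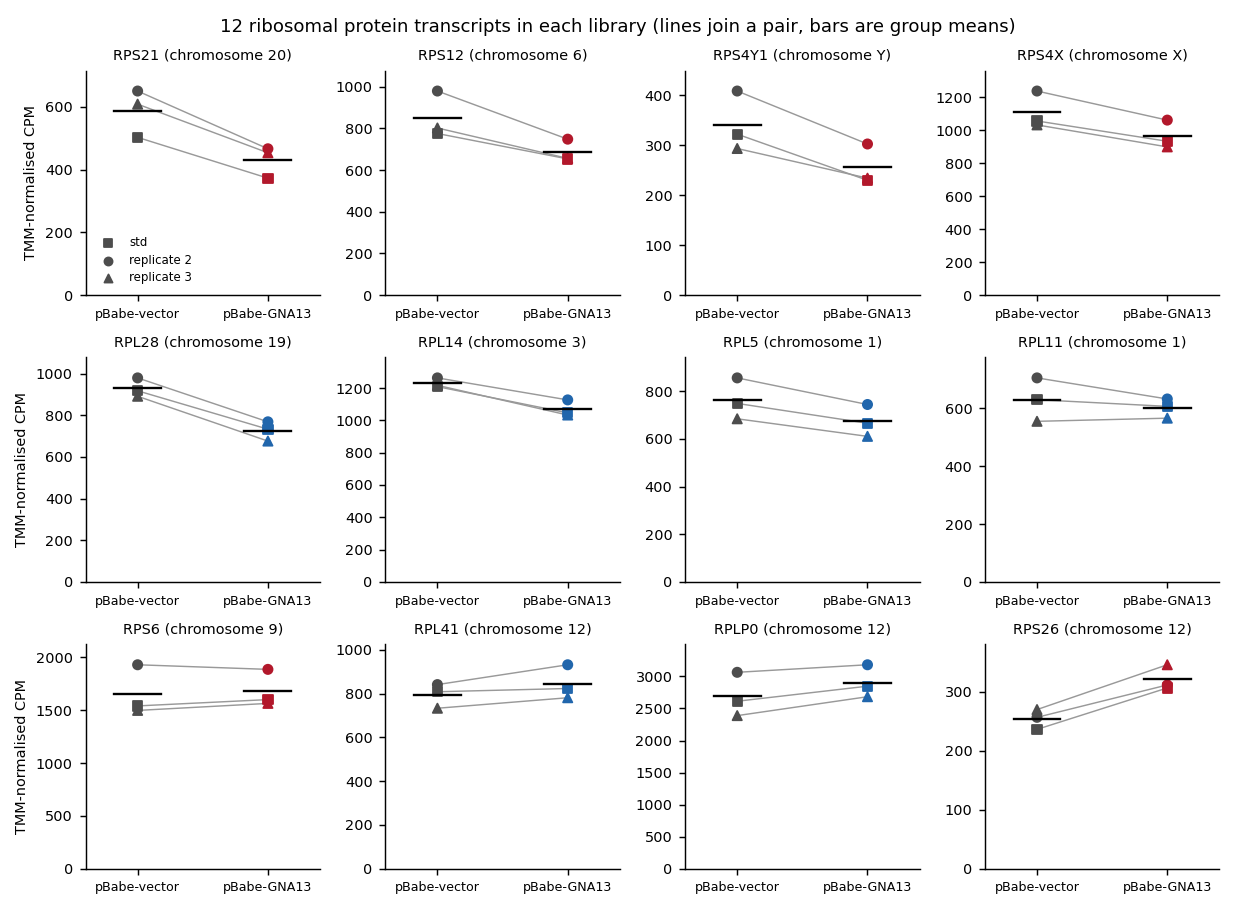
TMM-normalised CPM (y axis, from 0) of 12 members in each library of pBabe-vector and pBabe-GNA13 (x axis); symbols mark std, replicate 2 and replicate 3, grey lines join a pair and bars are group means. RPS21, RPS12, RPL28 and RPL14 are separated between the lines, RPS6 and RPL11 are not, and of the chromosome 12 genes RPS26 is separated upward.

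The members that did not fall lay largely on a few chromosomes. The median log2 difference of the expressed genes (mean log2 CPM over 1) was 0.29 on chromosome 12, 0.12 on chromosome 9, 0.07 on chromosome 2, −0.15 on chromosome 22 and −0.21 on chromosome 20, and within 0.06 of 0 on the other chromosomes with a member. All 4 members on chromosome 12, RPS26 (0.34), RPL6 (0.17), RPLP0 (0.11) and RPL41 (0.09), were positive, and so were 3 of 4 on chromosome 9, RPS6 among them. The 64 members on chromosomes within 0.06 of 0 had a median of −0.16, and 62 of them were negative. The 14 others had a median of 0.04.

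Measured against its own chromosome, nearly every member was low. With each chromosome centred on its median in the blocked fit, 74 of 78 members were negative, with a median of −0.12. On this scale 48.9% of all genes and 57.2% of the genes over 100 CPM were negative. Of the members, 25 (12 small, 13 large) fell at an adjusted p under 0.05 and 0 rose (0 also at an unadjusted p under 0.05, edgeR). Over all genes 7.07% fell and 6.83% rose, and among the 2302 genes over 100 CPM 273 fell and 164 rose. On each of the 22 chromosomes that carry a member, the members' median was below that of the chromosome, with differences of −0.43 to −0.05. Both ends of this range rest on chromosomes with 1 member, Y (RPS4Y1, against 11 genes) and 22. At least 3 members lay on 15 of the chromosomes.

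On this scale RPL41, the smallest ribosomal protein, moved from 0.09 to −0.20 and RPLP0, the base of the stalk that recruits elongation factors, from 0.11 to −0.18, and both were called lower. RPL6 moved from 0.17 to −0.12 and RPS26 from 0.34 to 0.05, and neither was called. RPS21, on chromosome 20, moved from −0.45 to −0.24 and remained called (edgeR adjusted p = 0.00103), while RPL28 on chromosome 19 stayed at −0.34. RPS6 moved from 0.02 to −0.09 without being called. RPS2 (−0.13), RPS3 (−0.12), RPL27A (−0.13) and RPL30 (−0.15) stayed negative but were no longer called. RPL22 (0.004), RPS27A (0.04) and RPS26 (0.05) were among the 4 members still above 0.

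**Figure D3:**
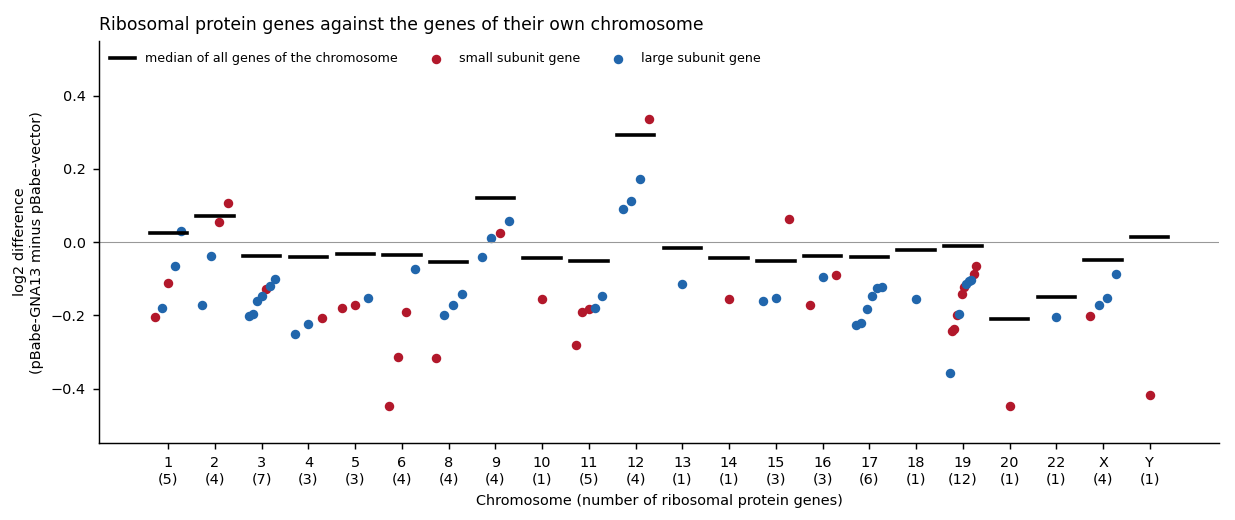
Log2 difference of each member (points, red for small and blue for large subunit) beside the median of the expressed genes of its chromosome (black bars), by chromosome (x axis, number of members in brackets). Most members lie below the bar of their chromosome, and on chromosome 12 RPS26 alone lies above it.

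As a share of all counts, the 78 genes took 7.97%, 8.56% and 7.33% of the pBabe-GNA13 libraries (std, replicate 2 and replicate 3) and 8.38%, 9.31% and 7.75% of the pBabe-vector libraries. The share was lower in pBabe-GNA13 in every pair, with differences of −0.42, −0.75 and −0.43 percentage points, but the groups overlapped. The mean difference was −0.53 percentage points (exact permutation p = 0.5, two-sided, smallest possible 0.1). It was −0.12 without pBabe-vector replicate 2, −0.22 without pBabe-GNA13 replicate 3, −0.84 without pBabe-GNA13 replicate 2 and −0.90 without pBabe-vector replicate 3. The lines' order of pairs was alike, with replicate 2 highest and replicate 3 lowest in both.

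Small-subunit genes made up 34.7%, 34.3% and 35.3% of the members' counts in pBabe-GNA13 and 35.4%, 35.1% and 35.9% in pBabe-vector. The small-subunit part thus differed by −0.68, −0.81 and −0.61 percentage points within the pairs, a spread of 0.10 (SD, n = 3) around −0.70. The unpaired exact permutation test gave p = 0.2, since replicate 3 of pBabe-GNA13 lay above replicate 2 of pBabe-vector. The 30 ribosomal protein pseudogenes, left out of the members, took between 0.0846% and 0.0969% of the counts in pBabe-GNA13 and between 0.0909% and 0.102% in pBabe-vector. Reads from members can be assigned to such near-identical copies or lost, and how the authors' counting treated them was not given in the sources used here. In bulk RNA a lower share does not tell fewer ribosomal protein mRNAs per cell from more RNA of other genes.

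**Figure D4:**
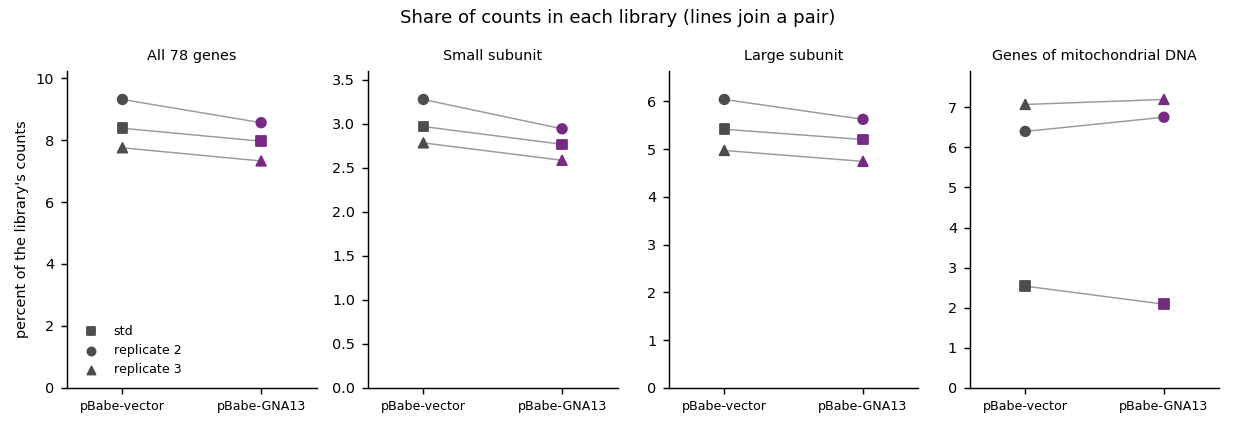
Percent of each library's counts (y axes, from 0) taken by all 78 genes, the small-subunit genes, the large-subunit genes and the genes of mitochondrial DNA, in pBabe-vector and pBabe-GNA13; lines join the libraries of a pair. The members' share is lower in pBabe-GNA13 within each pair (by −0.42 to −0.75 percentage points), and the std libraries stand apart only in the mitochondrial panel.

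Ribosomal protein genes were among the most abundant transcripts, with a median of 835 CPM and 74 of 78 over 100 CPM. Per kilobase of the Ensembl canonical transcript, the median member was at 973 CPM, and RPS2 (4054) and RPL13A (3808) led. Per kilobase of all annotated exons, which counts retained introns as length, the median was 269 CPM and RPS2 (1604), RPL13A (1329) and RPS12 (1204) led, while RPS12 was only 21st on the canonical scale. Per kilobase of the longest transcript RPS2 again led and RPL13A came 7th.

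Toward the other end stood RPS10, RPL36A and RPL17, with 5.15, 10.99 and 80.3 CPM per kilobase of canonical transcript. RPS10, a protein of the 40S head, was at 2.14, 2.32 and 3.23 CPM in pBabe-GNA13 and 3.48, 3.01 and 3.99 CPM in pBabe-vector. Its log2 difference of −0.45 ± 0.23 (SE) equals that of RPS21 in size but passed neither fit. In the annotation 31.5% of the RPS10 exons and 32.9% of the RPL17 exons are shared with another gene on the same strand, for RPS10 the readthrough gene RPS10-NUDT3, and RPL36A overlaps RPL36A-HNRNPH2. Whether reads of these genes were assigned elsewhere was not tested, so their low level is uncertain.

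Other genes of the same machinery were counted from lists. Of the ribosomal proteins under other names, FAU (−0.17), which is made as a fusion with a ubiquitin-like protein, and RACK1 (−0.21), a signaling scaffold on the 40S head, both fell in the blocked fit. FAU was not called with chromosomes centred (−0.11). Of 8 paralogs with the suffix L, 2 fell, where 10.4% of all genes did. RPL22L1, the paralog of RPL22, was at 311, 274 and 439.8 CPM in pBabe-GNA13 and 386, 433 and 471 CPM in pBabe-vector (log2 difference −0.33), whereas RPL22 itself was at 0.03. RPL3L was low throughout (1.12 to 1.63 CPM against 2.09 to 3.31 CPM), and RPL10L was at −0.20 without passing.

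Translation factors and other TOP mRNAs, 33 of 34 in the table, had a median of −0.10, with 11 lower and 1 higher in the blocked fit. This is 36.4% in all, against 19.7% of all genes (10.4% lower and 9.32% higher). Among the 2302 genes over 100 CPM the shares were larger, 19.5% lower and 10.2% higher. With chromosomes centred 14 were lower and 0 higher, against 7.07% and 6.83% of all genes. EEF1G is not in the table. The strongest, EIF4A2, an RNA helicase of the cap-binding complex, was at 312, 433 and 384 CPM in pBabe-GNA13 and 515, 589.6 and 501 CPM in pBabe-vector, with no overlap and a log2 difference of −0.51 ± 0.14 (SE; edgeR adjusted p = 0.35, and 1.47e-07 with the block). The initiation factor 3 subunits EIF3D (−0.30) and EIF3M (−0.26) fell as well. Against their chromosomes EIF3M was at −0.21 and still called, while EIF3D, on chromosome 22, was at −0.14 and no longer called (edgeR adjusted p = 0.0722). The 1 that rose was NACA (0.22, chosen after its values were seen), a nascent chain factor on chromosome 12, which was at −0.07 against its chromosome.

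Of 60 ribosome biogenesis genes, 8 were lower and 3 higher in the blocked fit, 18.3% in all and close to the 19.7% of all genes, and their median was −0.06. NMD3, the export adaptor that is released from 60S subunits in the cytoplasm, was at 50.8, 47.1 and 50.4 CPM in pBabe-GNA13 and 74.8, 67.7 and 69.6 CPM in pBabe-vector. Its log2 difference was −0.52 ± 0.09 (SE; edgeR adjusted p = 0.128, and 3.94e-08 with the block). EIF6, which keeps 60S from joining 40S, was at −0.39, or −0.18 against the other genes of chromosome 20. POLR1A, the largest subunit of RNA polymerase I, rose by 0.20, as did TCOF1 (0.16) and PNO1 (0.24), both named after their values were seen. With chromosomes centred 4 were lower and 1 higher, and POLR1A (0.13) and PNO1 (0.16) were not called.

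Among 11 snoRNA host RNAs, several of which start with a TOP element, 8 (72.7%) were lower in the blocked fit, against 10.4% of all genes, and the median was −0.22. With chromosomes centred 6 were lower, against 7.07% of all genes. ZFAS1 was at 24.9, 31.4 and 24.8 CPM against 38.4, 48.0 and 29.5 CPM, and SNHG8 at 63.6, 84.8 and 56.9 CPM against 84.7, 108 and 77.6 CPM. Both fell in all 3 pairs (log2 differences −0.51 and −0.39) while their groups overlapped. Against their chromosomes ZFAS1, on chromosome 20, was at −0.30 and SNHG8 at −0.36, and both were still called. SNHG6 was at −0.22 and was called in the blocked fit, but not with chromosomes centred (−0.17).

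In the 13 regulators and surveillance genes, 3 rose and 1 fell in the blocked fit, 30.8% in all against 19.7% of all genes. With chromosomes centred 2 were higher and 0 lower. MDM2, the p53 ubiquitin ligase, was at 173, 171 and 157 CPM in pBabe-GNA13 and 126, 118 and 107 CPM in pBabe-vector, without overlap (log2 difference 0.52 ± 0.10 SE; edgeR adjusted p = 0.176, and 2.72e-08 with the block). It lies on chromosome 12, and against that chromosome it was at 0.23. CDKN1A, the cell cycle inhibitor transcribed by p53, was at 105, 153 and 132 CPM against 77.3, 114 and 93.0 CPM (log2 difference 0.46), higher in each pair. The 1 that fell was LARP1 (−0.15, chosen after its values were seen), which was not called with chromosomes centred (−0.12). LARP4, which binds poly(A) tails, rose by 0.16 but was at −0.13 against its chromosome, 12.

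**Figure D5:**
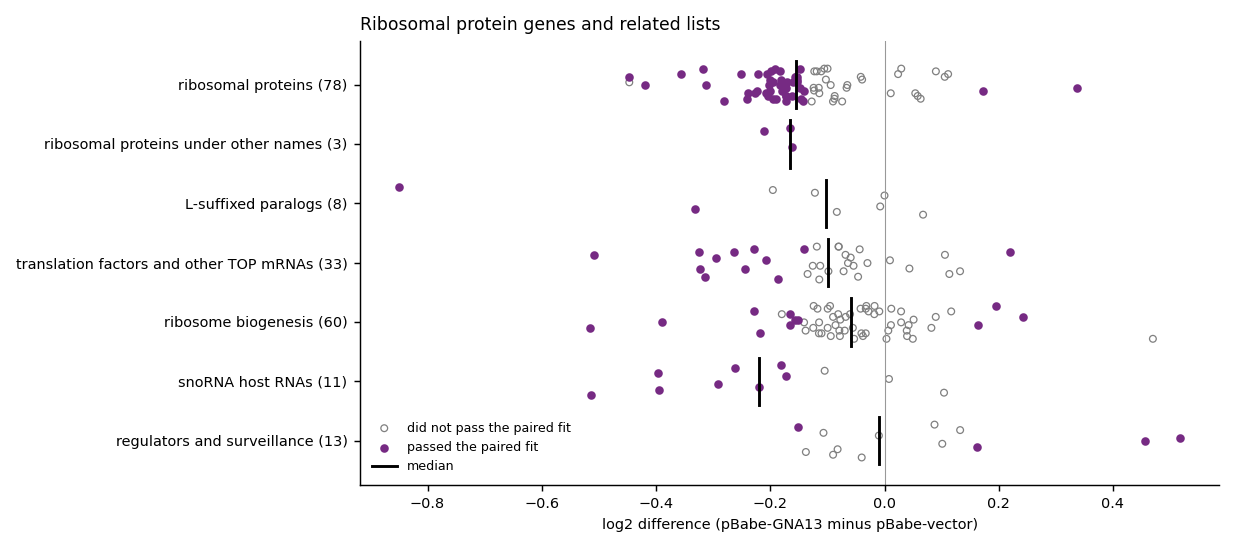
Log2 difference (x axis) of the ribosomal protein genes and of 6 related lists (rows, number of genes in brackets); each point is a gene, filled where the blocked fit was passed, and black bars are medians. The members and the snoRNA host RNAs lie mostly below 0 (medians −0.15 and −0.22), and ribosome biogenesis genes lie around −0.06.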

How the data were processed

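The authors deposited 1 table of whole-number counts, with a row per gene symbol. Per the study's methods the authors checked reads with FastQC (0.11.7 in the submitters' processing notes), aligned them with STAR to Gencode 38 and counted them with featureCounts. The TMM and limma steps described for the study were not applied to these counts. The strand setting and the rule that left 17297 genes are not given in the sources used here. The table uses symbols older than Gencode 38. All 6 columns were used and 0 were left out. The pBabe-GNA13 column tagged std repeats the number 2 in its heading and is tied to its line only.

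Counts were fitted with edgeR 4.0.16 (R 4.3.3; TMM, quasi-likelihood with abundance trend, Benjamini-Hochberg over all 17297 genes, called at 0.05), with the line as the only term. Deviations from the group means correlated within the std, replicate 2 and replicate 3 pairs (Pearson's r 0.659, 0.807 and 0.888 over 12778 genes, −0.736 to 0.125 across pairs), so the pairing, taken from the headings, was accepted and results of a fit blocked by pair stand beside those without. Permutation tests used SciPy 1.17.1. P-values measure the spread between cultures of 1 line each. Coordinates and lengths come from Gencode 44 (GRCh38) by symbol, which all 78 members matched, and start sites from RefSeq (GRCh38.p14), searched on both strands. Scripts were tested on simulated counts.

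Members, lists and tests were chosen with earlier results of these data known. Named members are the 6 of each subunit with the smallest p, the 5 lowest and 5 highest differences, those whose groups are separated by over 15%, the 3 highest and 3 lowest per kilobase, and 12 fixed genes. No member's groups were separated by over 15%. FAU, RACK1 and the 3 smallest p of each other list are named too. Some genes that this rule selects are not reported here by name, though they stay in the fits and counts. Alternatives were DESeq2 1.42.0, limma-trend (limma 3.58.1, prior count 2), other scalings, filterByExpr, leaving out libraries or pairs, chromosome centring and a GC and length offset. DESeq2 with the block and the canonical length were added after seeing the data. The endothelial markers and 2 of 3 leukocyte markers are not in the table, and the remaining leukocyte marker was at most 0.206 CPM and the liver markers at most 5.26 CPM. A count of 3 equals 0.0738 to 0.0909 CPM, for counting error only.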

Additional observations from a re-analysis of the deposited data

How the results depend on the processing

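Without pairing, 0 members were called under every scaling, filter, tool and left-out library. With the pair as a block the count was 47, and 46, 34 and 25 without the std, replicate 2 and replicate 3 pair, 42 with DESeq2, 44 with the GC and length offset and 25 with chromosomes centred. In the same order, ribosome biogenesis genes numbered 11, 10, 8, 7, 6, 10 and 5 (1 with unpaired DESeq2) and translation factors 12, 14, 11, 11, 11, 13 and 14. The members' median of −0.15 lay between −0.22 (without pBabe-GNA13 replicate 2) and −0.068 (without pBabe-vector replicate 2) with single libraries left out. The share difference of −0.53 percentage points was −0.73 on TMM-scaled sizes and −0.56 with genes of mitochondrial DNA left out of the total. With single libraries left out it lay between −0.90 (without pBabe-vector replicate 3) and −0.12 (without pBabe-vector replicate 2). It was −0.22 without pBabe-GNA13 replicate 3 and −0.84 without pBabe-GNA13 replicate 2. The level per kilobase (median 269 CPM) was 478 with the longest and 973 with the canonical transcript, since these lengths are shorter.

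Leaving out single libraries turned the sign of some differences: RPL22 lay between −0.012 and 0.075, RPL11 between −0.15 and 0.022, RPS6 between −0.066 and 0.15, RPS19 between −0.13 and 0.025, RPL13A between −0.22 and 0.026, RPL36A between −0.26 and 0.057 and RPL10 between −0.35 and 0.063. RPL10, at −0.17 over all libraries and called in the blocked fit, turned without pBabe-vector replicate 2. RPL36A was at 0.031 in the blocked fit without the std pair. Chromosome centring with the pair block, which subtracts the chromosome's median, turned RPS6 to −0.092, RPL41 to −0.20, RPL6 to −0.12, RPLP0 to −0.18 and LARP4 to −0.13. The causes of the other changes were not tested.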
